A study of Homo sapiens with 8 samples.

Results

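The Hippo pathway core and its TEAD factors were followed here as 10 genes, YAP1, WWTR1, TEAD1, TEAD2, TEAD3, TEAD4, LATS1, STK3, STK4 and VGLL4, picked by name from the 58688 genes counted in LM2 cells. All 10 were found and all 10 passed the filter on low counts. Ponatinib lowered WWTR1, which encodes the YAP paralog TAZ, and TEAD4, and the other 8 did not pass the test. Of all 16031 genes tested, 30.7% passed it. In the shRNA samples WWTR1 went in the opposite direction. Each of the 3 ABL knockdowns had more than 2-fold its level with scrambled shRNA, in 1 sample each. All 3 were set against the same scrambled sample, which lay past 2-fold from all 3 knockdown samples for 416 genes.

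In the Hippo pathway the kinases MST1 (STK4) and MST2 (STK3) activate the LATS kinases, which phosphorylate the coactivators YAP and TAZ and thereby keep them out of the nucleus. Unphosphorylated YAP and TAZ bind the TEAD proteins on DNA and switch on genes of growth and adhesion such as CCN1 and CCN2, while VGLL4 competes for the same TEAD surface. The pathway acts largely through phosphorylation and location of its proteins, which RNA counts do not measure, and in breast cancer cells YAP and TAZ are known for their part in invasive growth.

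LM2 cells descend from the triple negative breast cancer line MDA-MB-231, were selected for metastasis to the lung, and were grown in DMEM with serum. Cells were given Ponatinib, an inhibitor of ABL and other tyrosine kinases, at 1 μM for 6 h (2 samples) or DMSO (2 samples). Stable lines made with lentivirus carried scrambled shRNA, ABL1 shRNA, ABL2 shRNA or ABL1 and ABL2 shRNA together (1 sample each), so that the scrambled control had also been infected. Nothing states that the repeats came from separate cultures, and their p-values then measure only the spread between these samples, which may be technical. How many clones make up each shRNA line is not given in the sources used here.

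Reads on genes numbered 7568934 (Ponatinib replicate 2) to 13010896 (ABL1 shRNA) per sample. Values below are normalized CPM, which are counts scaled to a common library size by TMM within the 4 drug samples or within the 4 shRNA samples. The drug and shRNA sets were not compared with each other, because 68 genes had 100 counts or more throughout the drug samples and 0 throughout the shRNA samples. ABL1 had 2159 reads with scrambled shRNA, 944 with ABL1 shRNA, 2550 with ABL2 shRNA and 1329 in the combined knockdown, and ABL2 had 2686, 2757, 1177 and 1795, so each targeted gene was lowest in the sample labelled for its knockdown. The names inside the scrambled and ABL1 shRNA count files are exchanged, and the labels were followed. Of the markers of this line, VIM, CD44, AXL, ZEB1 and MSN summed to 3495 to 5961 CPM, while PGR had 0 reads in every sample, ESR1 3 to 11 and immune markers at most 0.396 CPM. Luminal or epithelial markers were not all absent, with 61 to 125 reads for EPCAM, 74 to 99 for GATA3 and 3 to 11 for FOXA1. CDH1 had 23 reads with ABL1 shRNA and 20 in the combined knockdown, and 0 to 4 in the other samples.

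The promoter windows of YAP1 and WWTR1 are shown because WWTR1 fell with Ponatinib and was past 2-fold higher than with scrambled shRNA in each knockdown, while its paralog YAP1 did neither. Each window holds 250 bases before and 50 bases after a transcription start of RefSeq on GRCh38.p14, printed 5′ to 3′ on the gene's strand, with any match to the TEAD core motif GGAATG (or CATTCC on the other strand) or to the AP-1 motif TGAGTCA (or TGACTCA) in capitals. YAP1 has the window chr11:102110197-102110496 on the plus strand, and WWTR1 has the windows chr3:149657976-149658275 and chr3:149703224-149703523 on the minus strand.
YAP1: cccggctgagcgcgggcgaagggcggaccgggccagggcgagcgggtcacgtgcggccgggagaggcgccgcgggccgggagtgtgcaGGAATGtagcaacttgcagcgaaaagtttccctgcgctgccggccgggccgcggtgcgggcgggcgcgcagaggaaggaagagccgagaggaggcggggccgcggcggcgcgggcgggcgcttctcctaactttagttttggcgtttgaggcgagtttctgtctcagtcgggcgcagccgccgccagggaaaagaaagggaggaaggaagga
WWTR1 (window ending at 149658275): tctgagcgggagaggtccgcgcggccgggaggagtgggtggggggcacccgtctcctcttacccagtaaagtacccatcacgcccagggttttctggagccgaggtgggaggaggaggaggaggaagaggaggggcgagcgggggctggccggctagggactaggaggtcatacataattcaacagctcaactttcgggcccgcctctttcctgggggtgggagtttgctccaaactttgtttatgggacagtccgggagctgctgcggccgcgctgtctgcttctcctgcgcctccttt
WWTR1 (window ending at 149703523): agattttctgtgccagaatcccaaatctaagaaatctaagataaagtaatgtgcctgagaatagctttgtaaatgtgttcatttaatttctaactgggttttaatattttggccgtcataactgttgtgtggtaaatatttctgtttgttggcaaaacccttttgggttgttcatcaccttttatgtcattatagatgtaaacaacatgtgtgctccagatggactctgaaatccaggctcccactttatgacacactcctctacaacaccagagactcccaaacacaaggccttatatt
The YAP1 window holds GGAATG at position 89 of its 300 bases, counted from the 5′ end, and neither WWTR1 window holds either motif. Over the 14 windows used, of 7 members, this was the only TEAD match and there was no AP-1 match. Of all 35116 windows of this length, 14.0% and 4.95% held a match. STK3 was left out of this search by name, and TEAD1 and TEAD4 had no window in it. A match is a description of letters and shows no binding. GC content was 70.7% in the YAP1 window, 63.0% in the first WWTR1 window and 37.0% in the second.

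The coactivators YAP1 and WWTR1 were both well expressed. YAP1 lies on chromosome 11 from 102110447 to 102233424 (plus strand) and WWTR1 on chromosome 3 from 149517235 to 149736714 (minus strand) of GRCh38. YAP1 was at 239.6 and 235 normalized CPM in the DMSO samples and at 224 and 229 in the Ponatinib samples. Both Ponatinib values lay below both DMSO values, by little, and the log2 fold change was -0.065 (95% interval -0.19 to 0.063, adjusted p = 0.449 in the quasi-likelihood test of edgeR, adjusted by Benjamini and Hochberg over 16031 genes).

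WWTR1 was at 169 and 179.9 normalized CPM with DMSO and at 114 and 122 with Ponatinib. The groups did not overlap, and their means were 175 ± 7.33 and 118 ± 5.63 (SD, n = 2 each). The log2 fold change was -0.57 (SE 0.067, 95% interval -0.71 to -0.43), and WWTR1 fell (edgeR adjusted p = 1.25e-05). With Ponatinib WWTR1 was thus at 0.674 times its DMSO level, short of a 2-fold change. In these bulk samples fewer cells with an RNA and less of it per cell cannot be told apart.

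The 4 TEAD genes encode the DNA-binding partners of YAP and TAZ, and TEAD4 was the member with the largest fold change after Ponatinib. TEAD4, on chromosome 12 from 2959330 to 3040676 (plus strand), was at 42.7 and 50.4 normalized CPM with DMSO and at 28.7 and 24.7 with Ponatinib. Both treated samples were below both controls, and the gap between the groups was wider than the gap within either. TEAD4 fell by 0.79 on the log2 scale (SE 0.11, 95% interval -1.01 to -0.56, edgeR adjusted p = 5.65e-05), to 0.580 times the DMSO level. It rests on 190 to 498 reads per sample.

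TEAD1 (chromosome 11, 12674421 to 12944737, plus strand), the most abundant member of the family here, was at 481 and 459.8 normalized CPM with DMSO and 431 and 496 with Ponatinib. The 2 Ponatinib samples lay on either side of the controls, and the log2 fold change was -0.024 (95% interval -0.17 to 0.12, edgeR adjusted p = 0.829). TEAD2 (chromosome 19, 49340595 to 49362457, minus strand) was at 12.8 and 12.4 with DMSO and 13.1 and 16.1 with Ponatinib, with a log2 fold change of 0.20 (-0.11 to 0.51, edgeR adjusted p = 0.330). TEAD3 (chromosome 6, 35473597 to 35497079, minus strand) was at 29.4 and 31.5 with DMSO and 25.6 and 31.8 with Ponatinib, with a log2 fold change of -0.10 (-0.34 to 0.14, edgeR adjusted p = 0.541). For TEAD1 and TEAD3 the groups overlapped and for TEAD2 both Ponatinib samples were above both controls, one of them by little. Their intervals leave room for changes of up to 0.51 on the log2 scale in TEAD2, so that a p missing the threshold does not show an equal level.

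None of the 3 kinases passed the test. LATS1 (chromosome 6, 149658153 to 149718105, minus strand), which phosphorylates YAP and TAZ, was at 50.2 and 52.4 normalized CPM with DMSO and at 55.2 and 61.3 with Ponatinib. Both Ponatinib samples were higher, with a log2 fold change of 0.18 (95% interval 0.0065 to 0.35) that did not pass (edgeR adjusted p = 0.110). The log2 fold change was 0.27 without Ponatinib replicate 1 and 0.11 without Ponatinib replicate 2, in fits that leave a lone treated sample.

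STK3 (chromosome 8, 98371228 to 98942827, minus strand) and STK4 (chromosome 20, 44966494 to 45080021, plus strand) encode the kinases at the top of the cascade. STK3 was at 34.2 and 29.4 normalized CPM with DMSO and at 28.4 and 28.0 with Ponatinib, and its log2 fold change was -0.17 (95% interval -0.40 to 0.046, edgeR adjusted p = 0.224). STK4 was at 144 and 136 with DMSO and at 122 and 141 with Ponatinib, with overlapping groups and a log2 fold change of -0.10 (-0.26 to 0.058, edgeR adjusted p = 0.337). For STK4 the value depended on a sample, being -0.21 without Ponatinib replicate 2 and 0.015 without Ponatinib replicate 1. TEAD1 was likewise -0.13 without Ponatinib replicate 2 and 0.085 without Ponatinib replicate 1. These fits leave a lone treated sample, whose spread cannot be measured, so their calls are not given. Ponatinib replicate 2 was the most shallowly sequenced sample.

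VGLL4 (chromosome 3, 11556069 to 11771350, minus strand), the TEAD competitor, was at 27.35 and 21.9 normalized CPM with DMSO and at 22.9 and 26.3 with Ponatinib. The Ponatinib values fell between the DMSO values, and the log2 fold change was -0.017 (95% interval -0.28 to 0.25, edgeR adjusted p = 0.934).

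Counted together, 2 of the 10 members fell and 0 rose at an adjusted p under 0.05 in edgeR's test, while 30.7% of all 16031 genes tested passed, 15.0% of the tested genes being higher and 15.7% lower. The members' share is not above that background. By the study's thresholds, a change past 2-fold with P (not adjusted) below 0.05, 0 of 10 members passed against 5.48% of all genes. The count by these thresholds was also 0 in DESeq2's Wald test. On P alone 3 members passed in edgeR's test (WWTR1, TEAD4 and LATS1). At least the 30.7% of all genes with an adjusted p under 0.05 did so too. The median log2 fold change was -0.083 over the members and -0.0047 over all genes. Between replicates, the members differed by 0.029 to 0.32 on the log2 scale in the DMSO pair and by 0.023 to 0.31 in the Ponatinib pair.

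**Figure D1:**
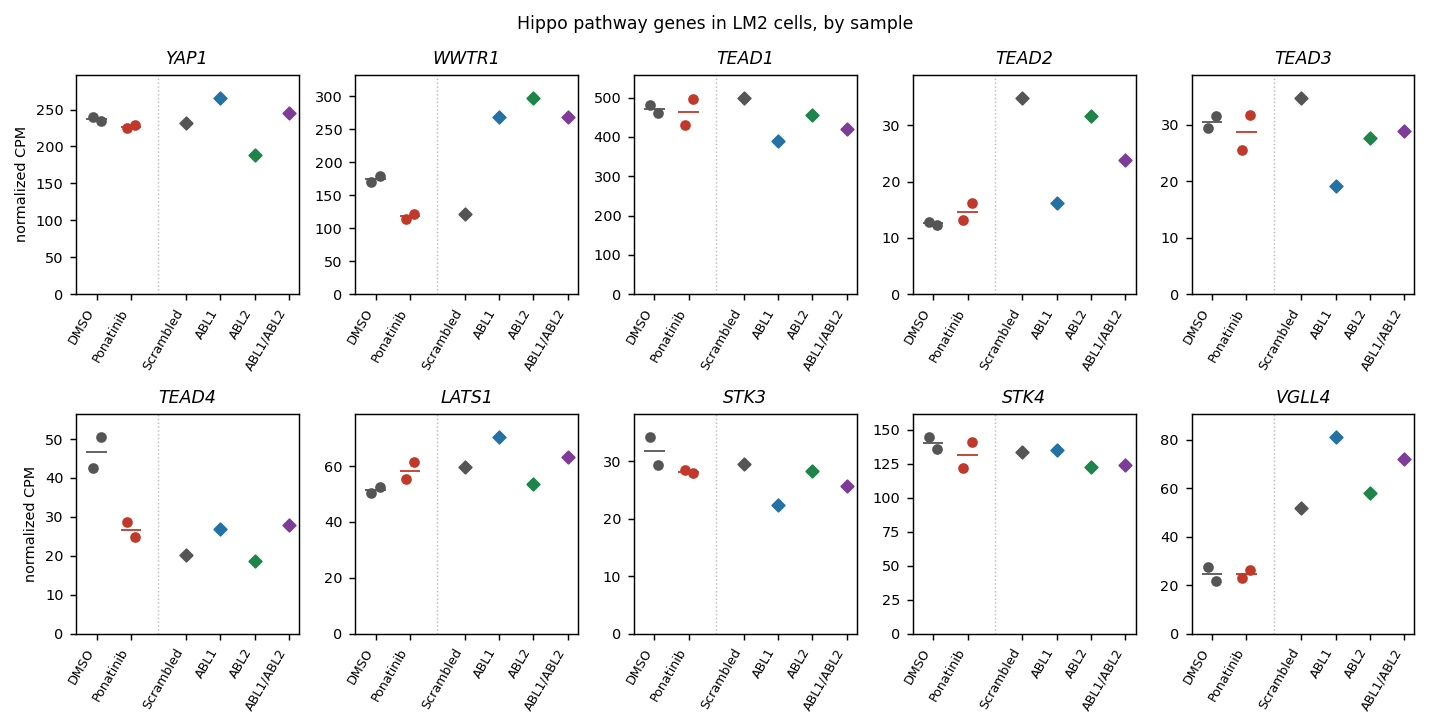
Normalized CPM (vertical axes, from 0) of each of the 10 genes in the 8 samples, with the drug samples as circles (bars at the group mean) left of the dotted line and the shRNA samples as diamonds right of it. WWTR1 and TEAD4 have both Ponatinib circles below both DMSO circles, and WWTR1 has its 3 knockdown diamonds at 268 to 297 above the scrambled diamond at 122; the 2 sets were scaled separately.

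In the shRNA samples WWTR1 gave the largest ratio by size of the 10 genes in every knockdown. It was at 122 normalized CPM with scrambled shRNA, 268 with ABL1 shRNA, 297 with ABL2 shRNA and 268 in the double knockdown. The scrambled sample alone was low, and the 3 knockdown samples were close to each other. The log2 ratios to scrambled shRNA were 1.14 (95% counting interval 1.05 to 1.23), 1.28 (1.19 to 1.37) and 1.14 (1.05 to 1.23), which are folds of 2.20, 2.43 and 2.20. These exact (Clopper-Pearson) intervals cover counting error only, and with 1 sample a group no knockdown ratio has a replicate check. A fit of all 8 samples, which takes its spread from the drug pairs and assumes that the lone shRNA samples vary like them, gave WWTR1 edgeR adjusted p = 4.68e-08, 1.03e-08 and 6.22e-08.

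The 3 ratios share the same scrambled sample and are not independent of each other. Among all 16172 genes tested in the shRNA samples, 1.57% were past 2-fold higher in all 3 knockdowns. The scrambled library lay past 2-fold from all the other 3 libraries for 416 genes, the corresponding number being 160 for ABL1 shRNA, 217 for ABL2 shRNA and 98 for both, and WWTR1 was the only member among the 416. With ABL2 shRNA in place of scrambled shRNA as the reference, WWTR1 with ABL1 shRNA was at -0.15 on the log2 scale, so the difference lay between the scrambled sample and all knockdowns and not between the knockdowns. PECAM1, an endothelial marker, was likewise lowest with scrambled shRNA and highest with ABL2 shRNA, with 233, 398, 499 and 393 reads in scrambled, ABL1, ABL2 and ABL1/ABL2 shRNA, while CDH5 had 0 to 3 reads, VWF 7 to 17 and the 3 endothelial markers summed to 21.3 CPM with scrambled shRNA and 31.9 to 40.7 in the knockdowns. In the drug samples, which were not compared with these, PECAM1 had 31 and 39 reads with DMSO and 42 and 18 with Ponatinib.

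YAP1 did not share this pattern. It was at 232 normalized CPM with scrambled shRNA, 266 with ABL1 shRNA, 189 with ABL2 shRNA and 246 in the double knockdown. The log2 ratios were 0.20 (0.12 to 0.27), -0.30 (-0.38 to -0.21) and 0.085 (0.0091 to 0.16), with the ABL2 shRNA sample on the other side of the control from the ABL1 shRNA sample.

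**Figure D2:**
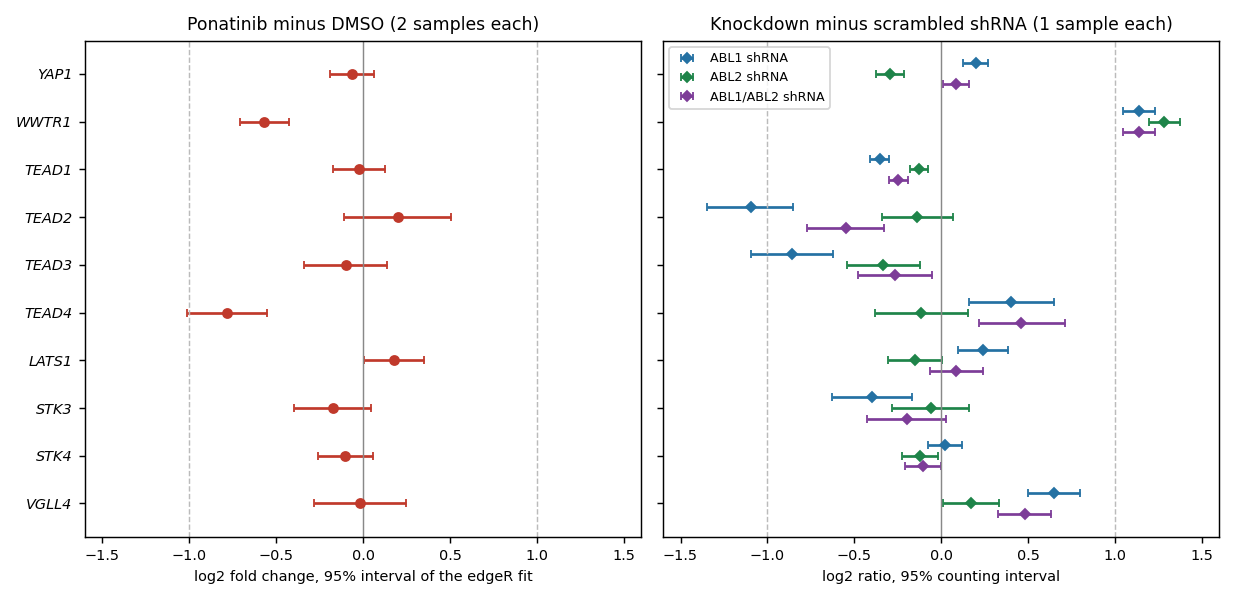
Log2 change of each gene (horizontal axis) after Ponatinib, with 95% intervals of the edgeR fit over 2 samples a group (left), and in each knockdown against the shared scrambled sample, with 95% counting intervals (right); dashed lines mark 2-fold. WWTR1 lies at -0.57 on the left and at 1.14 to 1.28 on the right, and TEAD2 with ABL1 shRNA, at -1.10, is the only other point past a dashed line.

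TEAD2 and TEAD3 were lowest with ABL1 shRNA. TEAD2 was at 34.8 normalized CPM with scrambled shRNA, 16.3 with ABL1 shRNA, 31.7 with ABL2 shRNA and 23.8 in the double knockdown, with log2 ratios of -1.10 (95% counting interval -1.34 to -0.85), -0.14 (-0.34 to 0.067) and -0.55 (-0.77 to -0.33). The sample with both shRNAs lay between those of the single knockdowns. TEAD2 shares 319 exon bases, 10.7% of its merged exons, with CD37 on the opposite strand, whose reads went from 131 with scrambled shRNA to 40, 110 and 59 in the same order. Without knowledge of the strand setting used in counting, reads of the pair cannot be told apart in that stretch.

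TEAD3 was at 34.7 normalized CPM with scrambled shRNA, 19.1 with ABL1 shRNA, 27.5 with ABL2 shRNA and 28.8 in the double knockdown. All 3 knockdowns were below the control, by log2 ratios of -0.86 (-1.09 to -0.62), -0.33 (-0.55 to -0.12) and -0.27 (-0.48 to -0.055). TEAD4 was at 20.3, 26.9, 18.8 and 28.0 in the same order, with log2 ratios of 0.40 (0.16 to 0.65), -0.11 (-0.38 to 0.15) and 0.46 (0.22 to 0.71). So TEAD4, which fell with Ponatinib, was not below the control in the samples with ABL1 shRNA. TEAD1 was at 499, 389.9, 456 and 420.0, with log2 ratios of -0.35, -0.13 and -0.25.

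Among the kinases, LATS1 was at 59.5 normalized CPM with scrambled shRNA, 70.3 with ABL1 shRNA, 53.6 with ABL2 shRNA and 63.2 in the double knockdown. Its log2 ratios of 0.24 (0.095 to 0.39), -0.15 (-0.31 to 0.0067) and 0.086 (-0.065 to 0.24) lay on both sides of 0. STK3 was at 29.5, 22.4, 28.3 and 25.7, with log2 ratios of -0.40, -0.061 and -0.20. STK4 had its largest ratio closer to 0 than the largest of any other member, at 133, 135, 123 and 124 and with log2 ratios of 0.021, -0.12 and -0.10.

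VGLL4 was higher in all 3 knockdowns, at 51.7 normalized CPM with scrambled shRNA, 80.9 with ABL1 shRNA, 58.2 with ABL2 shRNA and 72.1 in the double knockdown. The log2 ratios were 0.65 (0.50 to 0.80), 0.17 (0.013 to 0.33) and 0.48 (0.33 to 0.63). VGLL4 shares 1597 exon bases, 22.2% of its merged exons, with the autophagy gene ATG7 on the opposite strand, which had 365, 413, 437 and 369 reads in the same order. These ATG7 reads are not scaled for library size. As the strand setting is not known, reads of VGLL4 and ATG7 cannot be told apart in that stretch, and their part in the VGLL4 values was not tested.

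Past 2-fold were 2 of 10 members with ABL1 shRNA (WWTR1 higher and TEAD2 lower), against 9.11% of all genes, 1 with ABL2 shRNA, against 8.03%, and 1 with both, against 8.14%. The last 2 counts are WWTR1 alone and are near the background, also against the 4.86%, 4.73% and 4.71% of genes past 2-fold higher in the 3 knockdowns. Between replicates of the drug samples a 2-fold difference was less frequent, being found for 1.67% of genes in the DMSO pair and 2.42% in the Ponatinib pair. The largest difference of a member was 0.32 on the log2 scale in the DMSO pair and 0.31 in the Ponatinib pair. The shRNA samples have no replicates to compare. Past 1.5-fold were 4 members with ABL1 shRNA (WWTR1, VGLL4, TEAD2 and TEAD3), with 24.1% of all genes beyond it, and WWTR1 alone in the other 2, with 20.3% and 21.8%. In the fit of all 8 samples, edgeR's adjusted p was under 0.05 for 5 members with ABL1 shRNA (WWTR1, TEAD1, TEAD2, TEAD3 and VGLL4), 2 with ABL2 shRNA (WWTR1 and YAP1) and 3 with both (WWTR1, TEAD2 and VGLL4), against 22.0%, 15.6% and 17.8% of all 18275 genes tested. The median log2 ratio of the members was 0.11, -0.12 and -0.0087, and that of all genes 0.0038, -0.0062 and 0.0003.

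**Figure D3:**
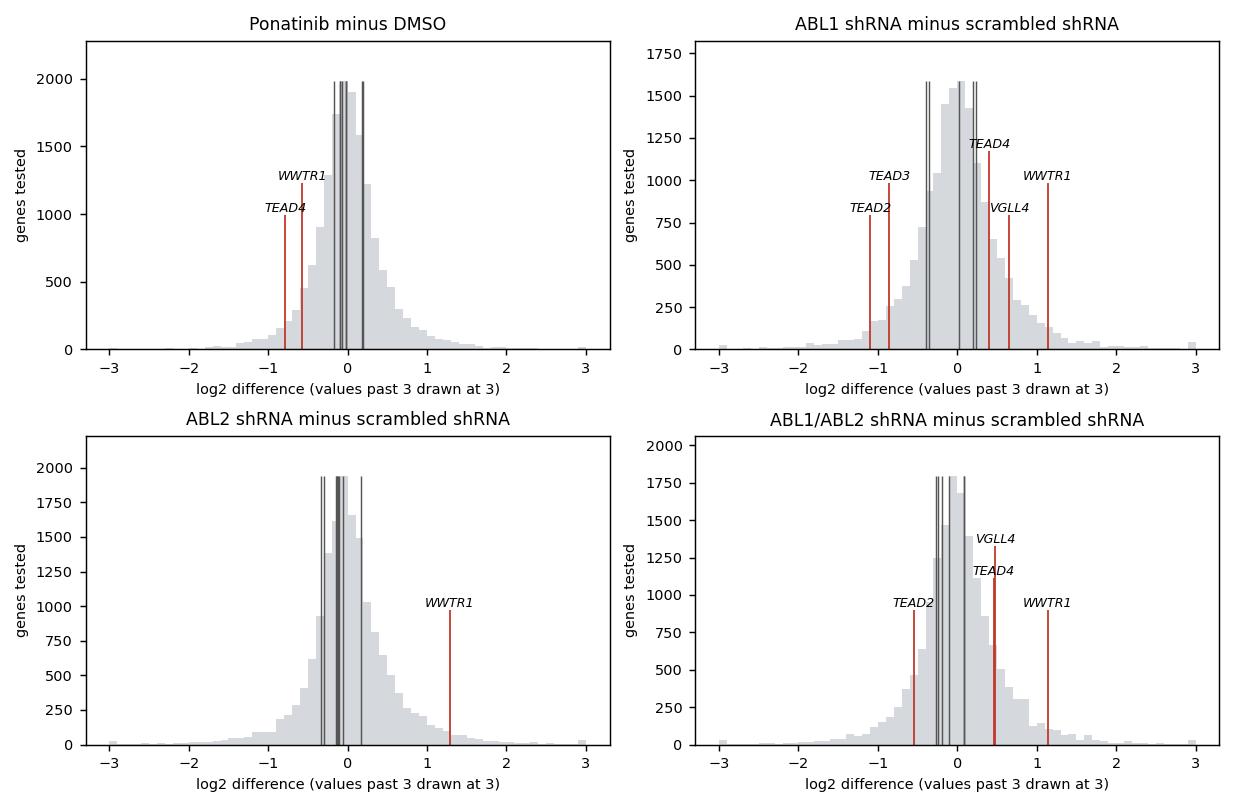
Number of genes tested (vertical axes) by log2 difference (horizontal axes) in the 4 comparisons, with values past 3 drawn at 3 and vertical lines at the 10 members, in red with a name beyond 0.4. TEAD4 and WWTR1 lie farthest left after Ponatinib, WWTR1 lies farthest right in each knockdown, and TEAD2 lies at -1.10 with ABL1 shRNA; line heights carry no value.

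WWTR1 and YAP1 were also set against each other inside each library, where scaling between libraries plays no part. There were 0.707 WWTR1 reads per YAP1 read in DMSO replicate 1 and 0.766 in replicate 2, and 0.508 and 0.532 in the Ponatinib replicates. The DMSO and Ponatinib ratios did not overlap, and their counting intervals, 0.667 to 0.750 and 0.720 to 0.815 against 0.474 to 0.545 and 0.491 to 0.576, did not either. The ratio was 0.527 with scrambled shRNA, 1.01 with ABL1 shRNA, 1.57 with ABL2 shRNA and 1.09 in the double knockdown, so that WWTR1 reads outnumbered YAP1 reads most where YAP1 was lowest. The number of STK4 reads per STK3 read, the other pair of paralogs, was 4.23 to 4.64 with DMSO, 4.28 to 5.04 with Ponatinib and 4.34 to 6.04 in the shRNA samples.

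Among the reads on the 4 TEAD genes, TEAD1 made up 83.0% to 87.2% in all 8 samples. TEAD4 made up 7.53% (95% Wilson interval 6.91% to 8.21%) and 9.10% (8.37% to 9.89%) with DMSO and 5.76% (5.16% to 6.42%) and 4.35% (3.78% to 4.996%) with Ponatinib. Both Ponatinib shares were below both DMSO shares. In the shRNA samples the TEAD2 share was 5.92% with scrambled shRNA, 3.60% with ABL1 shRNA, 5.93% with ABL2 shRNA and 4.75% in the double knockdown, and the TEAD4 share was 3.45%, 5.94%, 3.52% and 5.59%. The samples with ABL1 shRNA had less TEAD2 and more TEAD4 among their TEAD reads. These shares are of reads and are not corrected for transcript length.

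**Figure D4:**
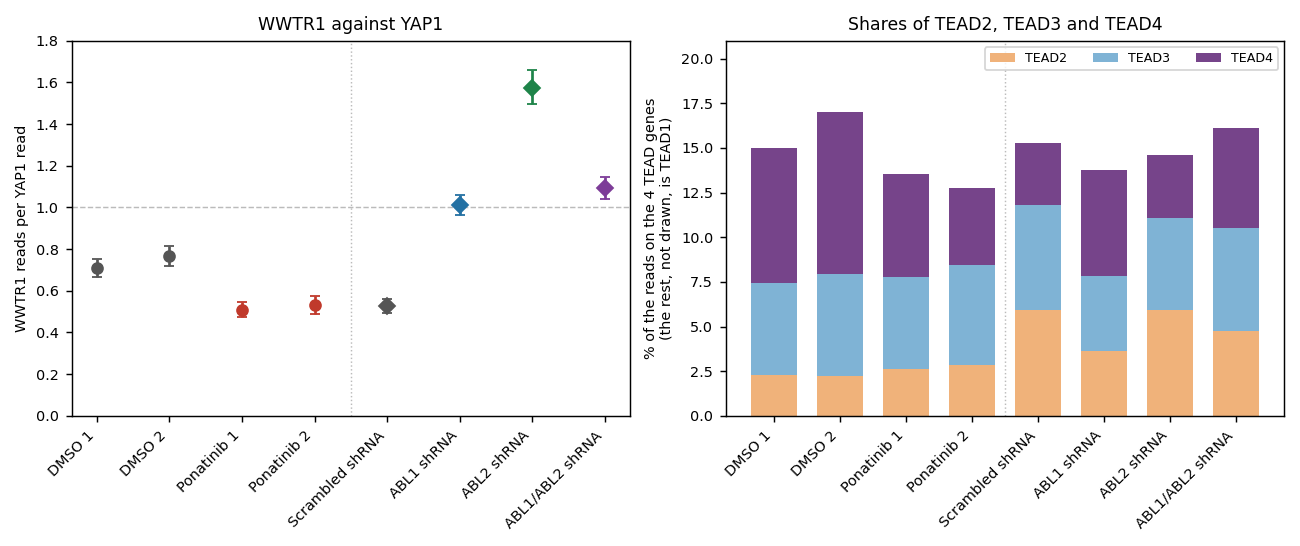
WWTR1 reads per YAP1 read with 95% counting intervals (left) and the percentage of TEAD reads that fall on TEAD2, TEAD3 and TEAD4 (right, stacked from 0), for each of the 8 samples. The ratio is 0.508 and 0.532 in the Ponatinib samples against 0.707 and 0.766 with DMSO and reaches 1.57 with ABL2 shRNA, and the TEAD4 band is thinner in both Ponatinib samples than in either DMSO sample.

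Per kilobase of canonical transcript, the order of the members in DMSO was TEAD1 at 49.97 ± 1.6 normalized CPM per kb (SD, n = 2), YAP1 at 43.9 ± 0.63, WWTR1 at 34.7 ± 1.5, TEAD4 at 27.2 ± 3.2, STK4 at 22.0 ± 0.91, STK3 at 11.2 ± 1.2, TEAD3 at 10.2 ± 0.50, LATS1 at 6.96 ± 0.21, VGLL4 at 6.52 ± 1.0 and TEAD2 at 5.79 ± 0.16. The replicates of STK3 and TEAD3 overlapped, as did those of LATS1 and VGLL4 and those of VGLL4 and TEAD2, so the order within these pairs is not resolved. With Ponatinib the first 3 places were held by the same genes, and TEAD4, at 15.6 ± 1.6, came after STK4, at 20.6 ± 2.1. In each knockdown WWTR1 was the highest member, at 53.3 to 59.0 normalized CPM per kb, above TEAD1 at 41.4 to 48.4, whereas with scrambled shRNA it came after TEAD1 and YAP1, at 24.2. The place of a gene depends on the length used. Divided by all merged exons, the first 4 in DMSO were the same, but STK3 went from 11.2 to 2.52 and to the last place, and WWTR1 was highest in no knockdown. By that length the DMSO replicates of WWTR1 (20.3 and 21.5) lay between those of TEAD4 (18.8 and 22.2), so their order is not resolved.

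The genes around these 10 were taken from lists of the pathway. In a list of 67 other Hippo regulators, 62 were tested after Ponatinib, of which 12 rose, 19 fell and 31 were not called (edgeR adjusted p under 0.05), where 30.7% of all genes were called. Their median log2 fold change was -0.11. With DESeq2's Wald test 19 were called, and the share of all genes it called is not given.

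Among the partners of the kinase cassette, 4 of 15 rose, 2 fell and 9 were not called. LATS2, the paralog of LATS1, had means of 69.6 ± 1.5 normalized CPM with DMSO and 44.4 ± 1.9 with Ponatinib (SD, n = 2 each) and fell by 0.64 on the log2 scale (edgeR adjusted p = 1.46e-05), and MAP4K4 fell by 0.35 on the log2 scale. Rises were seen in other MAP4K-type kinases that act on LATS or JNK signalling, MAP4K2 at 0.60, TNIK at 0.56 and MAP4K3 at 0.31, and in TAOK1 at 0.24, an activator of the MST kinases. The calls for TNIK, MAP4K3 and TAOK1 were lost with DESeq2's Wald test, and their values depended on single samples. Without DMSO replicate 2, the 3 were at 0.47, 0.17 and 0.23. MAP4K3 was at 0.48 without DMSO replicate 1 and at 0.23 without Ponatinib replicate 2. TAOK1 was at 0.26 without DMSO replicate 1, 0.066 without Ponatinib replicate 2 and 0.42 without Ponatinib replicate 1.

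The upstream scaffolds, which bring the kinases to the cell membrane, had 8 of 16 lower, 3 higher and 5 not called. FRMD6, a FERM domain protein, averaged 384 ± 13 normalized CPM with DMSO and 144 ± 11 with Ponatinib (SD, n = 2 each) and fell by 1.42 on the log2 scale (edgeR adjusted p = 1.01e-09). NF2, which encodes merlin, averaged 16.9 ± 0.80 and 8.06 ± 0.17 and fell by 1.06 (edgeR adjusted p = 5.33e-05). Both are past 2-fold, unlike any of the 10 members. WWC3 fell by 0.79 and RASSF1 by 0.33 on the log2 scale, and RASSF5 rose by 0.65, LLGL1 by 0.46 and DLG5 by 0.29. DLG5 was at 0.24 without DMSO replicate 1 and at 0.17 without Ponatinib replicate 2.

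Of 5 angiomotin and LIM proteins tested, which bind YAP or LATS, 3 fell and 1 rose. AMOTL2 was at 202 and 209 normalized CPM with DMSO and 83.7 and 83.6 with Ponatinib, and it fell by 1.30 on the log2 scale (edgeR adjusted p = 1.52e-09), and AMOTL1 at 121 and 118 against 59.1 and 64.6, and it fell by 0.95. Neither gene's groups overlapped. WTIP fell by 0.56 on the log2 scale, with its call lost by DESeq2's Wald test, and LIMD1 rose by 0.36. Of 12 genes of YAP degradation and cytoplasmic retention, 4 fell, led by SFN at -0.62 and with CSNK1E, YWHAG and YWHAH at -0.33 to -0.22, and 2 rose, BTRC at 0.35 and USP9X at 0.22. The STRIPAK phosphatase complex, which acts on the MST kinases, had SIKE1 higher at 0.32, PPP2CB at -0.22 and PPP2R1A at -0.18 lower, and 10 of 13 not called. Several of these small changes moved when a sample was left out, though some values, such as that of PPP2R1A, hardly moved. Such a fit has a lone sample in 1 group and takes its spread from the other pair, so only its values are given. Without DMSO replicate 1 WTIP was at -0.44, BTRC at 0.32 and YWHAG at -0.22, and without DMSO replicate 2 SIKE1 was at 0.28. Without DMSO replicate 1 and without replicate 2, YWHAH was at -0.17 and -0.26 and USP9X at 0.24 and 0.21. In the same order PPP2CB was at -0.18 and -0.26 and PPP2R1A at -0.18 and -0.17. Without Ponatinib replicate 1 BTRC was at 0.24, and without Ponatinib replicate 2 PPP2CB was at -0.15 and USP9X at 0.14. DESeq2's Wald test did not call BTRC, USP9X, YWHAH, PPP2CB or PPP2R1A, and upper quartile scaling ended the last 2 calls. VGLL3, the tested member of the other VGLL factors, averaged 6.56 ± 1.1 normalized CPM with DMSO and 13.9 ± 1.3 with Ponatinib (SD, n = 2 each) and rose by 1.07 on the log2 scale (edgeR adjusted p = 0.000206).

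Of 22 genes commonly used as YAP and TEAD targets, 13 fell, 2 rose and 7 were not called, with a median log2 fold change of -0.31. Of all genes tested, 15.7% were called lower and 15.0% higher. CCN2 was at 462 and 431 normalized CPM with DMSO and 63.5 and 53.4 with Ponatinib, and it fell by 2.92 on the log2 scale (edgeR adjusted p = 4.81e-12). CCN1 was at 1276 and 1259.6 with DMSO and at 432 and 408 with Ponatinib, and it fell by 1.59 (edgeR adjusted p = 5.78e-11). ANKRD1 fell by 1.98, FJX1 by 1.75 and F3 by 1.63 on the log2 scale, and GADD45A at 0.56 and IGFBP3 at 0.29 were higher. On leaving out either DMSO sample IGFBP3 was at 0.30 and 0.29. AMOTL2, LATS2 and PTPN14 are in both this list and that of the regulators. The list does not single out YAP, since many of its genes answer to other factors too. Of the markers of the cell line, ZEB1 fell by 0.57, CD44 by 0.41, MSN by 0.32 and AXL, which is also a target in the list, by 0.29 on the log2 scale, and VIM did not pass (0.064).

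**Figure D5:**
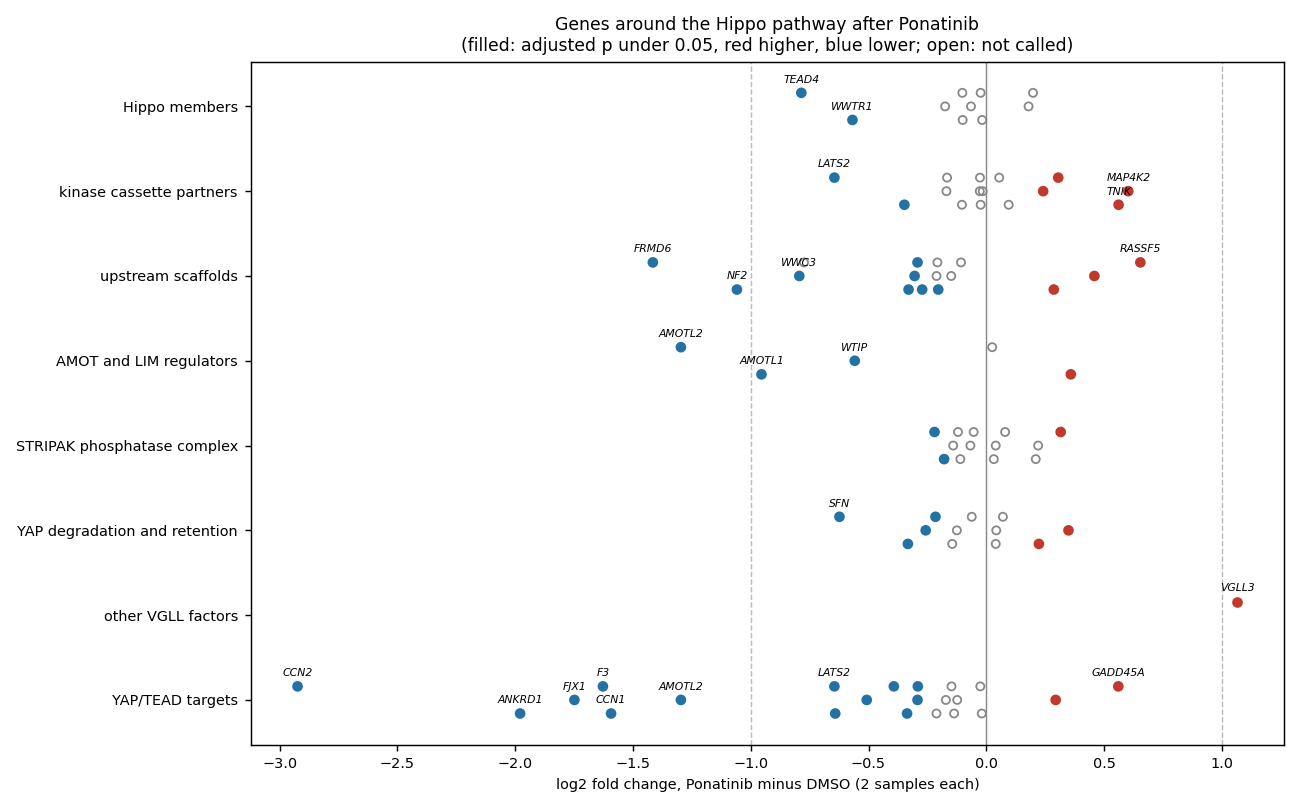
Log2 fold change after Ponatinib (horizontal axis, 2 samples a group) of the 10 members and of the genes of 7 lists, 1 point per gene, filled where the edgeR adjusted p is under 0.05 (red higher, blue lower) and with dashed lines at 2-fold. The members lie between -0.79 and 0.20, while CCN2 reaches -2.92, FRMD6 -1.42 and AMOTL2 -1.30, and VGLL3 lies at 1.07.

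Few regulators were past 2-fold in the knockdowns. Of 63 tested, 0 were higher and 3 lower with ABL1 shRNA, 0 and 4 with ABL2 shRNA, and 1 and 3 with both, against 9.11%, 8.03% and 8.14% of all genes in either direction. Named here because these counts are small, and after their values were seen, they were FRMD6, FAT4 and MOB1A with ABL1 shRNA, WWC1, AMOT, AMOTL2 and AJUBA with ABL2 shRNA, and FRMD6, FAT4, AMOT and, higher, DCHS1 with both. AMOT and DCHS1 had at most 25 reads in any of these samples. FRMD6 was at 405 normalized CPM with scrambled shRNA and 194, 203 and 180.2 in the knockdowns. NF2, which fell with Ponatinib, had log2 ratios of 0.62 (0.25 to 0.99), 0.046 (-0.36 to 0.45) and 0.29 (-0.10 to 0.68), and VGLL3, which rose with Ponatinib, of -0.20 (-0.54 to 0.14), -0.80 (-1.19 to -0.41) and -0.63 (-1.01 to -0.25).

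Of the 22 targets, 4 were past 2-fold lower and 0 higher in each knockdown. Of all 16172 genes tested, 688, 534 and 556 were past 2-fold lower with ABL1, ABL2 and both shRNAs, and 4.86%, 4.73% and 4.71% higher. TGFB2 and CCN1 were past 2-fold lower in all 3, where 1.00% of all genes were. CCN1 was at 948 normalized CPM with scrambled shRNA and 402, 260.2 and 363 in the knockdowns, with log2 ratios of -1.24, -1.87 and -1.39. TGFB2 was at 205 and 77.4, 76.2 and 64.9, with log2 ratios of -1.41, -1.43 and -1.66. CCN2 was at 129 and 85.5, 75.0 and 78.3, with log2 ratios of -0.59, -0.78 and -0.72. For all of these genes, as for WWTR1, the scrambled sample lay apart from all 3 knockdown samples, and in these samples WWTR1 was high where CCN1 and CCN2 were low.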

How the data were processed

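RNA-seq of 8 LM2 samples was analysed. The authors mapped reads to hg38 with TopHat and deposited raw read counts per gene, made with HTSeq 0.6.0 and not normalized (per the labels); the strand setting, annotation release and cultures behind the repeats are not given in the sources used here. The shRNA files end in lines of totals (reads on no feature 9.48% to 9.90%, ambiguous 6.12% to 6.32%), which were left out. The header cells of the scrambled and ABL1 shRNA samples are swapped relative to the labels, which were followed.

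IDs were matched to symbols (54836 of 58688 with a symbol) and to GENCODE positions on GRCh38. Ponatinib was compared with DMSO in edgeR 4.0.16 (R 4.3.3; quasi-likelihood test, TMM, filterByExpr, prior count 0.125) over 16031 genes, with Benjamini-Hochberg adjustment over all of them and without the shRNA samples. Each knockdown was compared with scrambled shRNA as a log2 ratio of TMM-scaled CPM over 16172 genes, with exact 95% intervals of the count ratio and no test. The members, gene lists and tests were chosen with earlier results of these data known. Of the other lists, up to 4 called genes a direction with the largest change were named, and for the knockdowns those past 2-fold the same way in all 3; CCN1 and CCN2 were always named. The fit was tested on counts drawn at random with known changes, and it recovered nearly all at 2-fold and missed more at 1.5-fold. Those counts had the same spread in every sample (squared coefficient of variation 0.005). The real pairs differed in spread, with a chi-square per degree of freedom of 1.44 for DMSO and 3.12 for Ponatinib. The recovery need not hold for them. Alternatives were other normalizations, filters, DESeq2 1.42.0, the replicate block, a larger prior count (2), leaving out samples, a fit of all 8 samples and other thresholds; the merged exon length was added after seeing the data.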

Additional observations from a re-analysis of the deposited data

How the results depend on the processing

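WWTR1 (-0.62 to -0.51 on leaving out each drug sample) and TEAD4 (-0.91 to -0.67) kept their direction under every alternative run. They kept their edgeR or DESeq2 call in every alternative with 2 samples in each drug group. There the number of members past a fold change of 2 with P under 0.05 stayed at 0. The number of members called by adjusted p was 2 to 4 on leaving out each sample (4 without Ponatinib replicate 2), that of the regulators 18 to 34, against 31 with all samples and 19 with DESeq2's Wald test, and that of the targets 12 to 16. Of the members that were not called, some changed sign on leaving out a sample: TEAD1 ranged from -0.13 to 0.085 (0.010 without DMSO replicate 1), TEAD3 from -0.25 to 0.074, STK4 from -0.21 to 0.015 and VGLL4 from -0.16 to 0.16 (0.097 without Ponatinib replicate 1), and VGLL4 was 0.0067 with upper quartile scaling. The cause was not tested.

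The repeat numbers of DMSO and Ponatinib did not pair the samples (r = 0.0175 of their deviations over 10278 genes). With the number as a replicate block, 2 members, 30 regulators and 15 targets were called by adjusted p and 0 members by fold. The share of all genes called in that fit is not given.

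Between the single knockdowns, 0 members were past 2-fold in either direction, TEAD2 being nearest at -0.96 for ABL1 shRNA against ABL2 shRNA. The share of all genes past 2-fold in that comparison is not given. With ABL2 shRNA as the reference of ABL1 shRNA the ratio turned for WWTR1 (-0.15), TGFB2 (0.024) and CCN1 (0.63). At 1.5-fold 4 members were past the threshold with ABL1 shRNA, and 14, 10 and 11 regulators with ABL1, ABL2 and both shRNAs, against 3, 4 and 4 at 2-fold. A fit of all 8 samples, whose spread comes from the drug pairs and assumes that the lone samples vary like them, called 5, 2 and 3 members and 25, 22 and 27 regulators. The same fit called 22.0%, 15.6% and 17.8% of all genes. Among the members TEAD2 has the fewest reads in the drug samples (122 to 145) and the largest SE after Ponatinib (0.14).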
